A study of Mus musculus with 24 samples.

Results

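The genes described are Tnf, which encodes the cytokine TNF, and 9 genes that NF-kB switches on and whose products feed back on TNF and NF-kB signalling: Tnfaip3, Nfkbia, Nfkbiz, Nfkbie, Birc3, Relb, Nfkb2, Zc3h12a and Tnip1. They were taken as a named list, which was chosen with earlier results of these data known. All 10 were found among 20738 genes with a named spot, each read at its spot with the highest mean over all 24 samples. All 10 also passed the filter on low signal, which left 16519 genes for the tests.

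The samples were lungs of female C57BL/6 mice aged 7 to 8 weeks, measured on 2-colour expression arrays after dosing with carbon nanomaterials. The 6 materials were rCNT and tCNT (rigid and tangled carbon nanotubes), BayTubes (a commercial carbon nanotube), Graphite, fullerene and SES, whose meaning the labels do not give. Each was given once a day for 4 days, at 10 µg a day in 50 µl of the buffer PBS, by oropharyngeal aspiration, which delivers a drop to the throat for the animal to inhale. Ctrl mice received PBS alone by the same route. Tissue was collected 24 h after the final dose. RNA of 2 mice of a group was pooled into each sample. BayTubes, Graphite and fullerene had 4 samples each, and Ctrl and the remaining materials had 3 each. They lay on 12 arrays on 3 slides, with a sample of its own in each dye. Samples are named below by group and by the number in their labels, from Ctrl 1 to fullerene 24. Precision is limited by these sample numbers, as arrays have no read depth, and p-values measure the spread between pools.

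NF-kB is a family of dimeric transcription factors held in the cytoplasm by IkB proteins. When TNF binds its receptors, adaptors and ubiquitin ligases activate the IKK kinases, IkB is degraded, and NF-kB enters the nucleus and induces inflammatory genes. It also induces its own brakes, such as the IkB proteins and the ubiquitin-editing protein A20 (Tnfaip3), and it induces Nfkb2 and Relb, the subunits of the slower non-canonical pathway. In the lung, macrophages and epithelial cells are known sources of TNF after particles are inhaled.

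Promoter sequences of 8 of the 10 genes were present in the RefSeq table used (build GRCm38.p6). Relb and Nfkbiz had no entry there. The 250 bases before each listed transcription start were searched on both strands for the kappaB consensus, the 10-base motif that NF-kB binds, which reads 3 G, a purine, any 2 bases, 2 pyrimidines and 2 C. The 5 promoters that hold it, and that of Tnf, are shown because they set genes that rose after rCNT (Nfkb2, Nfkbie, Tnfaip3, Tnf) beside genes that were not called (Nfkbia, Tnip1). Each line gives the 130 bases before the first listed start, 5′ to 3′ on the gene's own strand, with matches on either strand in capitals.
Nfkb2, chr19:46304607-46304736, plus strand: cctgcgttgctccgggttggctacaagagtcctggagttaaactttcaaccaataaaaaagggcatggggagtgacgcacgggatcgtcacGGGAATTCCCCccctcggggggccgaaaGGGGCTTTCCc
Nfkbie, chr17:45555570-45555699, plus strand: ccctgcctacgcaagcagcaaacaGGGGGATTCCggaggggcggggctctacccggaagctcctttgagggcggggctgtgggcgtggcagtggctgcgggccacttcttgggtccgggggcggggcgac
Tnfaip3, chr10:19015411-19015540, minus strand: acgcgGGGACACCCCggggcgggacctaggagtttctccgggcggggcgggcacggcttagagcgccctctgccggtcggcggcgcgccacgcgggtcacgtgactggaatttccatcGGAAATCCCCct
Tnf, chr17:35202008-35202137, minus strand: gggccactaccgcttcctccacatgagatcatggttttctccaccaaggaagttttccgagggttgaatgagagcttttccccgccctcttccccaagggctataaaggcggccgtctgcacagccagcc
Nfkbia, chr12:55492648-55492777, minus strand: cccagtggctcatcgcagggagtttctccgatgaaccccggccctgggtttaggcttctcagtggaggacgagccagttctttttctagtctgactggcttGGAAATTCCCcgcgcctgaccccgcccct
Tnip1, chr11:54962941-54963070, minus strand: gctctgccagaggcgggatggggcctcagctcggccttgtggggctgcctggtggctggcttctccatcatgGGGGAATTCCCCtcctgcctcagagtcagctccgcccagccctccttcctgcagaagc

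A match lay within 250 bases before a start in 5 of the 8 genes, Nfkb2, Nfkbie, Tnfaip3, Nfkbia and Tnip1. The same was true of 8.23% of the 27025 genes in the table and of 7.25% of its 32851 promoters. Nfkb2 and Tnfaip3 each had matches at separate places before their first start, and Nfkb2 had a further match before each of its other listed starts. At Nfkb2 and Tnip1 a run of capitals holds overlapping matches. At Tnfaip3 the run farther from the start holds a match on each strand. The motif reads nearly the same on both strands. The windows of Tnf, Birc3 and Zc3h12a held no match. A match is a string of letters and was not tested for binding, and matches occurred both in promoters of genes that rose after rCNT and in promoters of genes that were not called.

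**Figure D1:**
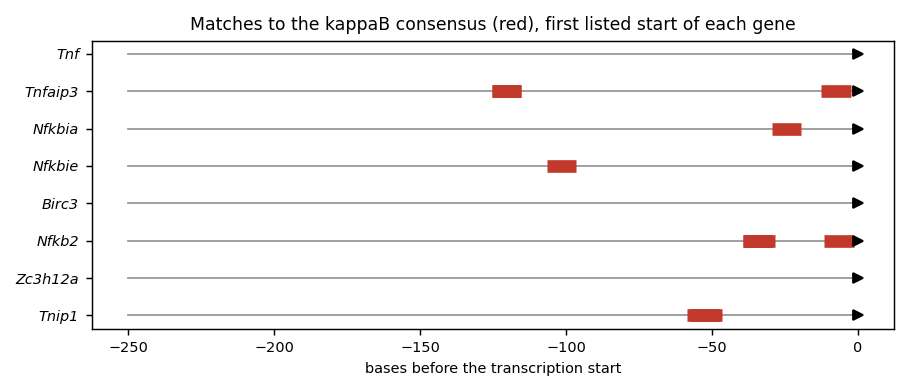
Positions of matches to the kappaB consensus (red bars) in the 250 bases before the first listed start of 8 of the genes, on an axis of bases before the transcription start (arrowheads at 0). Tnfaip3 and Nfkb2 have matches at separate places, Nfkbia, Nfkbie and Tnip1 at a single place each, and Tnf, Birc3 and Zc3h12a have none in this window.

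As a check of the tissue, the lung genes Sftpc and Scgb1a1 lay at percentile 99.99 of signal among the tested genes, Sftpb at percentile 99.72, Ager at percentile 96.76 and the endothelial gene Pecam1 at percentile 72.77. Some samples stood further from their group than others. The SD over all tested genes of a sample's dye-adjusted deviation from its group mean ran from 0.154 in SES 12 to 0.467 in rCNT 4, with Graphite 13 (0.418) and Graphite 16 (0.391) next to the highest. rCNT 4 and Graphite 16 shared an array. The count of genes of the described list that were called for rCNT against Ctrl was the same without that array.

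After rCNT, 6 of the 10 genes rose against Ctrl and none fell (limma, adjusted p under 0.05, called below). These were Tnf (2.56-fold), Nfkbie (2.17-fold), Nfkb2 (1.74-fold), Tnfaip3 (1.68-fold), Zc3h12a (1.61-fold) and Relb (1.58-fold). Over all tested genes, 21.8% were called in this comparison and 12.4% were higher. The median change of the 10 genes was 0.67 log2 units, against -0.015 over all tested genes. Tnip1, Nfkbiz, Birc3 and Nfkbia did not pass the test. None of the 10 genes was called after tCNT, SES, BayTubes, Graphite or fullerene. The comparisons against Ctrl all share the same 3 Ctrl samples. In lung tissue, a change in the number of cells of a type and a change in RNA per cell cannot be told apart.

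**Figure D2:**
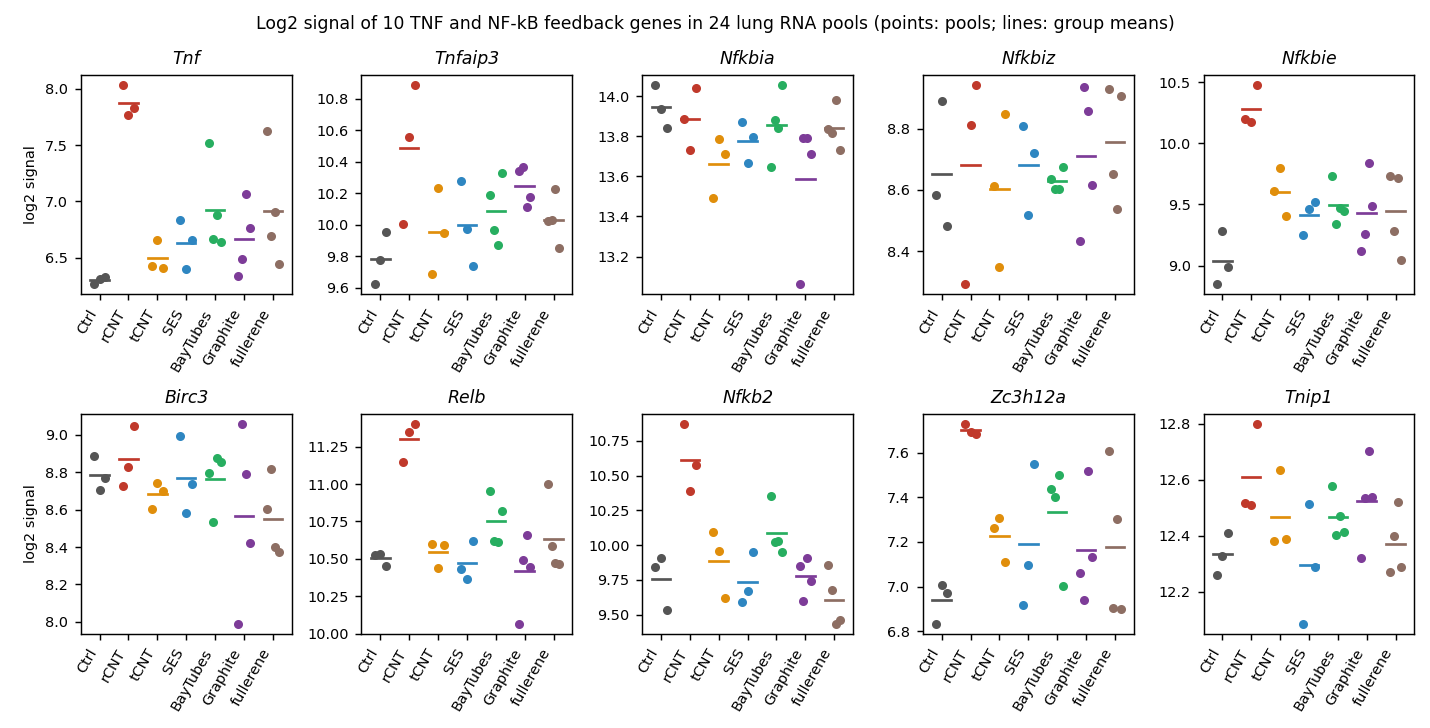
Log2 signal of each of the 10 genes in the 24 lung samples, by group; points are samples (pools of 2 mice), lines are group means, and each panel has its own axis. In the panels of Tnf, Nfkbie, Relb, Nfkb2 and Zc3h12a the 3 rCNT samples lie above the other 21 samples, while in those of Nfkbia, Nfkbiz and Birc3 they overlap the Ctrl samples.

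Tnf, the ligand that starts the pathway, had log2 signals of 6.26, 6.31 and 6.33 in Ctrl 1 to 3 and of 8.04, 7.77 and 7.83 in rCNT 4 to 6. It read 6.43, 6.66 and 6.41 in tCNT 7 to 9 and 6.83, 6.40 and 6.66 in SES 10 to 12. It read 7.52, 6.67, 6.88 and 6.64 in BayTubes 17 to 20, 6.34, 6.49, 7.07 and 6.76 in Graphite 13 to 16 and 7.63, 6.69, 6.91 and 6.44 in fullerene 21 to 24. The 3 rCNT samples were the highest of the series, and the nearest others were fullerene 21 and BayTubes 17, each well above the rest of its group. The 3 Ctrl samples were the lowest of the series and lay close together. Group means were 6.30 ± 0.03 (SD, n = 3) in Ctrl and 7.88 ± 0.14 (SD, n = 3) in rCNT. The fitted change, which also accounts for dye and shared arrays, was 1.36 ± 0.27 log2 units (SE; limma, adjusted p = 0.0011), somewhat less than the difference of the plain means. Ctrl signals of Tnf lay close above the filter on low signal, the 40th percentile, which was 5.69 to 5.75 across samples.

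Tnf was printed on 10 spots of the array, all annotated to the same transcript. Probe sequences were not used here, so the spots may be repeat prints of 1 probe. Every one of the 10 gave a higher signal after rCNT than in Ctrl, with fitted changes from 1.17 to 1.69 log2 units and a median of 1.42. Changes after BayTubes ran from 0.48 to 1.02 over the spots, and those after tCNT from 0.08 to 0.42. The same spot gave the highest value for each of the 6 materials. Within a sample, the spots of Tnf differed with a median SD of 0.103 once each was centred on its own mean.

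**Figure D3:**
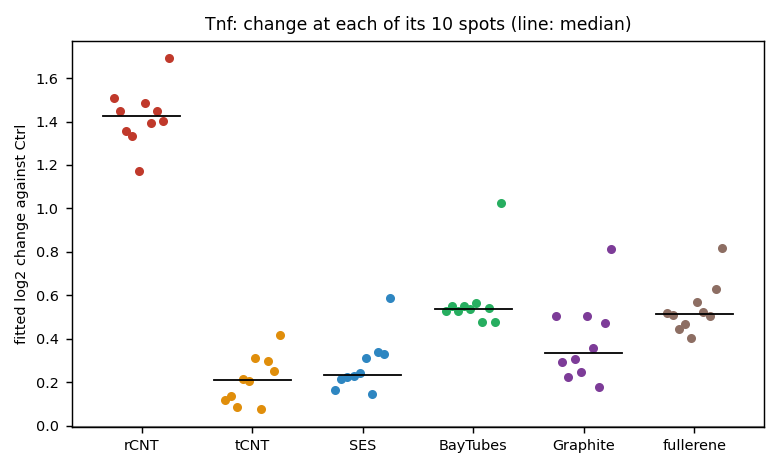
Fitted log2 change of Tnf against Ctrl at each of its 10 spots (points), by material; black lines are medians over the spots. All rCNT points lie between 1.17 and 1.69, above every point of the other materials.

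Nfkbie and Nfkbia encode IkB epsilon and IkB alpha, which bind NF-kB dimers and keep them out of the nucleus. Nfkbie read 8.85, 9.28 and 8.99 in Ctrl 1 to 3 and 10.20, 10.17 and 10.48 in rCNT 4 to 6. It read 9.61, 9.80 and 9.40 in tCNT 7 to 9, 9.25, 9.47 and 9.52 in SES 10 to 12, and 9.73, 9.34, 9.47 and 9.44 in BayTubes 17 to 20. The rCNT samples were again the highest of the series. The remaining values were 9.12, 9.26, 9.84 and 9.49 in Graphite 13 to 16 and 9.73, 9.28, 9.71 and 9.04 in fullerene 21 to 24, which overlapped Ctrl. The fitted rise after rCNT was 1.12 ± 0.18 log2 units (SE; limma, adjusted p = 0.000217), the smallest p of the 10 genes.

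Nfkbia did not follow Nfkbie. It read 14.06, 13.94 and 13.84 in Ctrl 1 to 3 and 13.89, 13.73 and 14.04 in rCNT 4 to 6, so the groups overlapped. The fitted difference was -0.14 ± 0.16 (SE), with a 95% interval from -0.48 to 0.20 log2 units (limma, adjusted p = 0.574). Graphite 13 had 13.06, far below the 13.71 to 13.79 of the other Graphite samples. The difference of Graphite from Ctrl was -0.44 ± 0.14 (SE; limma, adjusted p = 0.106), and -0.19 without Graphite 13.

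Nfkbiz encodes IkB zeta, a nuclear member of the IkB family that works with NF-kB at a subset of its target genes. It read 8.58, 8.89 and 8.48 in Ctrl 1 to 3 and 8.29, 8.81 and 8.94 in rCNT 4 to 6. The rCNT samples held both the lowest and the highest value of the series. The fitted difference was -0.07 ± 0.16 (SE), with a 95% interval from -0.41 to 0.27 (limma, adjusted p = 0.812). Its group means spanned 0.16 log2 units over the 7 groups, less than those of any other gene of the list.

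Nfkb2 encodes p100, the precursor of p52, and Relb encodes its partner in the non-canonical dimer. Nfkb2 read 9.84, 9.91 and 9.53 in Ctrl 1 to 3 and 10.87, 10.39 and 10.58 in rCNT 4 to 6. It read 10.10, 9.96 and 9.62 in tCNT 7 to 9, 9.59, 9.67 and 9.95 in SES 10 to 12, and 10.36, 10.02, 10.03 and 9.95 in BayTubes 17 to 20. BayTubes 17 came just below the lowest rCNT sample, and no sample of another group reached the rCNT range. Nfkb2 read 9.85, 9.60, 9.91 and 9.74 in Graphite 13 to 16 and 9.86, 9.68, 9.43 and 9.46 in fullerene 21 to 24. The rise after rCNT was 0.80 ± 0.16 log2 units (SE; limma, adjusted p = 0.00116).

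Relb read 10.53, 10.54 and 10.45 in Ctrl 1 to 3 and 11.15, 11.35 and 11.40 in rCNT 4 to 6. It read 10.60, 10.44 and 10.59 in tCNT 7 to 9, 10.43, 10.36 and 10.62 in SES 10 to 12, and 10.95, 10.62, 10.61 and 10.82 in BayTubes 17 to 20. It read 10.07, 10.49, 10.66 and 10.44 in Graphite 13 to 16 and 11.00, 10.59, 10.47 and 10.46 in fullerene 21 to 24. All rCNT values lay above those of the other groups, with fullerene 21 and BayTubes 17 next. The fitted rise was 0.66 ± 0.16 log2 units (SE; limma, adjusted p = 0.00489), and the other spot of Relb gave 0.69.

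Tnfaip3, Tnip1 and Birc3 encode proteins that act on the ubiquitin chains of the TNF receptor complex. A20, the product of Tnfaip3, edits and removes such chains, Tnip1 encodes a ubiquitin-binding partner of A20, and Birc3 encodes the ubiquitin ligase cIAP2. Tnfaip3 read 9.62, 9.78 and 9.96 in Ctrl 1 to 3 and 10.01, 10.56 and 10.89 in rCNT 4 to 6. It read 9.69, 10.23 and 9.95 in tCNT 7 to 9, 10.28, 9.97 and 9.74 in SES 10 to 12, and 10.19, 9.97, 9.87 and 10.33 in BayTubes 17 to 20. It read 10.34, 10.37, 10.11 and 10.18 in Graphite 13 to 16 and 10.02, 10.03, 10.23 and 9.85 in fullerene 21 to 24. All rCNT samples were above all Ctrl samples, but rCNT 4 lay within the range of the tCNT, SES, BayTubes and fullerene samples and below all 4 Graphite samples. The rise after rCNT was 0.75 ± 0.19 log2 units (SE; limma, adjusted p = 0.00763).

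Tnip1 read 12.26, 12.33 and 12.41 in Ctrl 1 to 3 and 12.52, 12.51 and 12.80 in rCNT 4 to 6. The groups did not overlap, yet the fitted difference of 0.24 ± 0.12 (SE) missed the threshold (limma, adjusted p = 0.157), with a 95% interval from -0.0074 to 0.49. Birc3 read 8.89, 8.71 and 8.77 in Ctrl 1 to 3 and 8.73, 8.83 and 9.05 in rCNT 4 to 6, which overlapped. Its fitted difference was -0.08 ± 0.19 (SE; limma, adjusted p = 0.813), and its other spot gave 0.24, so the spots disagreed in sign.

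Zc3h12a encodes regnase-1, an RNase that degrades inflammatory transcripts such as that of Il6. It read 6.83, 7.01 and 6.97 in Ctrl 1 to 3 and 7.73, 7.69 and 7.68 in rCNT 4 to 6. It read 7.26, 7.31 and 7.11 in tCNT 7 to 9, 6.92, 7.10 and 7.55 in SES 10 to 12, and 7.44, 7.40, 7.50 and 7.00 in BayTubes 17 to 20. It read 7.06, 6.94, 7.52 and 7.13 in Graphite 13 to 16 and 7.61, 6.90, 7.30 and 6.90 in fullerene 21 to 24. The rCNT samples were the highest of the series and lay close together, with an SD of 0.03 (n = 3), and fullerene 21 came next. The rise was 0.69 ± 0.18 log2 units (SE; limma, adjusted p = 0.00921).

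The 3 rCNT samples all lay above the 3 Ctrl samples for 7 of the 10 genes, Tnip1 and the 6 that rose, and this was so for 18.9% of tested genes. They lay above all 21 other samples for 5 of the 10, Tnf, Nfkbie, Relb, Nfkb2 and Zc3h12a, and for 5.42% of tested genes.

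The rCNT changes were also read within slides, since slides 1 and 2 each hold Ctrl and rCNT samples and slide 3 holds no Ctrl. With 1 sample of a group on a slide, the spread comes from other groups and that sample is assumed to vary like them. The p-values of such fits do not measure the spread within rCNT, and only differences are given for them. On slide 1, with 1 sample of each, Tnf differed by 1.66, Nfkb2 by 0.97 and Nfkbie by 0.92 log2 units. Zc3h12a differed by 0.79, Relb by 0.63 and Tnfaip3 by 0.19 there. Slide 2 held 1 rCNT and 2 Ctrl samples. There the differences were 1.67 for Tnf, 1.67 for Nfkbie, 1.35 for Relb and 1.06 for Tnfaip3. Nfkb2 differed by 0.71, Zc3h12a by 0.63 and Birc3 by 1.31. The dye term on slide 2 rests on the Graphite samples alone, and Birc3 read 7.99 in Graphite 13 and 9.06 in Graphite 14. Birc3 differed by -0.12 between rCNT and Ctrl on slide 2 without that term. Without it the differences were 1.53 for Nfkbie, 1.49 for Tnf, 1.11 for Tnfaip3, 0.95 for Nfkb2, 0.83 for Zc3h12a and 0.78 for Relb. All 6 genes were higher in rCNT within both slides. Where each array was given a term of its own, all 6 stayed higher in rCNT, by 0.88 for Nfkbie, 0.82 for Nfkb2, 0.74 for Tnf, 0.73 for Tnfaip3, 0.59 for Zc3h12a and 0.33 for Relb, but none of the 10 genes was called. With the 2 groups fitted alone, Nfkb2 (adjusted p = 0.0572, limma) and Tnfaip3 (adjusted p = 0.186, limma) were not called. Leaving out any 1 of the 6 samples left 6 genes called.

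After BayTubes, Tnf was 0.53 ± 0.22 log2 units (SE) above Ctrl, with a 95% interval from 0.07 to 0.99 and an adjusted p of 0.258 (limma), and 0.34 above it without BayTubes 17. Of all tested genes, 3.18% were called after BayTubes. None of the 10 genes was. Next to Tnf, the largest differences were those of Tnfaip3 (0.37), Nfkbie (0.36) and Zc3h12a (0.31). The median change of the 10 genes was 0.22 log2 units, against -0.0059 over all tested genes. All 4 BayTubes samples lay above the 3 Ctrl samples for Tnf, Nfkbie, Relb and Nfkb2. How often this was so among tested genes was not counted. After Graphite, where 1.13% of tested genes were called, the largest differences from Ctrl were 0.50 ± 0.17 for Tnfaip3 (SE, limma, adjusted p = 0.112) and the -0.44 of Nfkbia. All 4 Graphite samples lay above the 3 Ctrl samples for Tnfaip3, and also for Tnf, as did the samples of every other material for Tnf. The share of tested genes for which this was so was not counted.

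After tCNT, 0.708% of tested genes were called. The largest difference among the 10 genes was that of Nfkbie, at 0.48 ± 0.18 above Ctrl (SE, limma, adjusted p = 0.355). All 3 tCNT samples lay above the 3 Ctrl samples for Nfkbie and Zc3h12a. They did so for Tnf too, where the Ctrl samples were the lowest of the series. For tCNT too, the share of tested genes with such a gap was not counted. After fullerene, 0.26% of tested genes were called, and Birc3 differed from Ctrl by -0.39 ± 0.18 (SE, limma, adjusted p = 0.391). Tnf was 0.44 ± 0.25 above Ctrl after fullerene (SE; limma, adjusted p = 0.481), and 0.18 above it without fullerene 21. That sample shared an array with rCNT 5. After SES, 0% of tested genes were called (limma). The 95% interval of the Tnf difference was -0.32 to 0.77 after SES and -0.47 to 0.64 after tCNT, and changes within these bounds are not excluded by these samples.

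**Figure D4:**
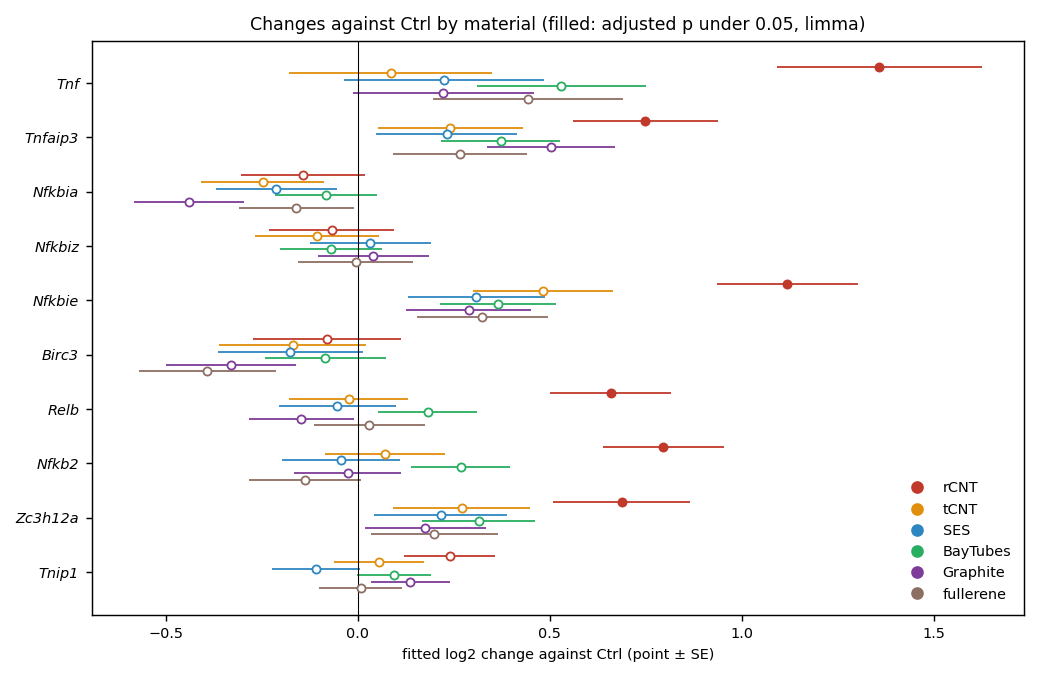
Fitted log2 change of each gene against Ctrl for the 6 materials (points, with bars of 1 SE); filled points passed an adjusted p under 0.05 in limma. The only filled points are those of rCNT for Tnf, Tnfaip3, Nfkbie, Relb, Nfkb2 and Zc3h12a, from 0.66 to 1.36.

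The materials were also compared with each other. Against the mean of the other 5 materials, the same 6 genes were higher in rCNT, by 1.06 ± 0.20 for Tnf, 0.77 ± 0.12 for Nfkb2, 0.76 ± 0.14 for Nfkbie, 0.66 ± 0.12 for Relb, 0.45 ± 0.13 for Zc3h12a and 0.43 ± 0.14 for Tnfaip3 (SE; limma, adjusted p from 7.5e-05 to 0.0298). In that comparison 26.2% of tested genes were called and 13.8% were higher. The calls for Tnfaip3 and Zc3h12a were lost without rCNT 6 (adjusted p = 0.288 and 0.0722, limma). That for Tnfaip3 was also lost without rCNT 5 (adjusted p = 0.105) and that for Zc3h12a without rCNT 4 (adjusted p = 0.0695). With array as a fixed term, Nfkb2 was still called (adjusted p = 0.0409, limma), while Nfkbie (0.0688), Relb (0.145), Tnf (0.149), Zc3h12a (0.229) and Tnfaip3 (0.306) were not, by their adjusted p in limma, though all 6 were still higher in rCNT.

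Over the 21 pairs of groups and 10 genes, 30 of 210 differences were called. All 30 were among the 60 that involve rCNT, in each case with rCNT higher, and none of the 150 between Ctrl and the other 5 materials, or among these, was. Tnf, Nfkbie, Relb and Nfkb2 were higher in rCNT than in each of the other 6 groups. Zc3h12a was called against Ctrl, Graphite and fullerene, Tnfaip3 against Ctrl and fullerene, and Tnip1 against SES only (0.35 ± 0.12, SE; limma, adjusted p = 0.0475). The genes called against rCNT numbered 4 for tCNT, 5 for SES, 4 for BayTubes, 5 for Graphite and 6 for fullerene. The shares of all tested genes called in these comparisons were 8.84%, 17.1%, 13.1%, 26.1% and 23.1% in the same order, and the shares higher in rCNT were 5.71%, 10%, 8%, 12.8% and 12%. In the 10 comparisons among the other 5 materials, the share of tested genes called was 0.145% for fullerene against tCNT, 0.0908% for BayTubes against tCNT, 0.0605% for fullerene against SES, 0.0363% for fullerene against BayTubes and 0.0303% or less for the rest, with 0.0121% for SES against tCNT. The rule behind these calls adjusts over genes within a pair, not over pairs. With array as a fixed term, 5 of the differences were called, and the shares of all tested genes called in that fit are not given here.

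In order of group means, Tnf ran from rCNT through BayTubes (6.93), fullerene (6.92), Graphite (6.66), SES (6.63) and tCNT (6.50) to Ctrl (6.30). Only the first step, from rCNT to BayTubes, passed the threshold (0.83 ± 0.25, SE; limma, adjusted p = 0.0338). The same held for the first step of Nfkbie, from rCNT to tCNT (adjusted p = 0.0315), and of Relb and Nfkb2, from rCNT to BayTubes (adjusted p = 0.0368 and 0.0226, limma). No step between neighbours passed the threshold for Tnfaip3, whose first step was from rCNT to Graphite (adjusted p = 0.268, limma), or for Zc3h12a, from rCNT to BayTubes (0.37 ± 0.17, SE; limma, adjusted p = 0.154), where the samples of the first pair did not overlap. A test for any difference among the 7 groups called Tnf, Nfkbie, Relb and Nfkb2 (moderated F in limma, adjusted p from 0.000835 to 0.00636), as it did 17.8% of tested genes. Tnfaip3 (adjusted p = 0.0901) and Zc3h12a (adjusted p = 0.0963) missed the threshold of that test, and none of the 10 genes passed it with array as a fixed term or within slide 1.

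Other genes of the pathway were taken from 8 lists with 122 genes in all, of which 113 were tested. These lists were also chosen with earlier results of these data known. After rCNT, 31 rose and 6 fell, which is 32.7% of those tested against 21.8% of all tested genes. The median change was 0.13 log2 units over the lists and -0.015 over all tested genes. After BayTubes 6 rose and 2 fell, after Graphite 2 rose and 1 fell, and none was called after tCNT, SES or fullerene.

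Among 9 other ligands of the TNF family tested after rCNT, 3 rose, Tnfsf14 (1.01), Tnfsf9 (0.90) and Tnfsf11 (0.59), and Tnfsf10 fell (-0.41), all in log2 units. Of 10 receptors, 4 rose and none fell. These were the T cell costimulators Tnfrsf18 (1.22) and Tnfrsf4 (1.04), the TWEAK receptor Tnfrsf12a (1.13) and TNF receptor 2, Tnfrsf1b (0.77 ± 0.22, SE; limma, adjusted p = 0.0176). TNF receptor 1, Tnfrsf1a, differed by -0.11 ± 0.09 (SE; limma, adjusted p = 0.429). Of 15 genes for the shedding of TNF or the stability of its mRNA, none rose and 3 fell, Timp3 (-0.72), an inhibitor of the TNF-shedding protease, Rhbdf1 (-0.52), a cofactor of it, and the RNA-binding Tia1 (-0.39).

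Of 19 adaptors and ubiquitin enzymes of the receptor complex, Fadd rose (0.37) and Traf1 fell (-0.51). Of 12 kinases, NF-kB subunits and IkB proteins tested, 3 rose and none fell, namely the nuclear IkB proteins Bcl3 (1.03) and Nfkbid (0.84), and IkB beta, Nfkbib (0.43). The canonical subunits Nfkb1 (-0.03, adjusted p = 0.916) and Rela (-0.22, adjusted p = 0.335) and the kinase Ikbkb (-0.25, adjusted p = 0.303) were not called (limma). Rel did not pass the filter on low signal. Of 16 further inhibitors, 3 rose, Tnip3 (1.47), a relative of Tnip1, the cytokine signalling inhibitor Socs3 (1.41) and Tnfaip8l2 (0.47), and the deubiquitinase Otud7b fell (-0.52).

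Of 26 inflammatory genes that NF-kB is known to induce, 14 rose after rCNT and none fell, with a median change of 0.53. The smallest p-values were those of the chemokine Ccl2 (4.90), the cytokine Il6 (3.08) and the chemokine Cxcl1 (3.45). Of 7 genes tied to IL-17 or IkB zeta, 4 rose, the chemokine Cxcl5 (5.03), Il6, which is on both lists, the acute phase gene Saa3 (5.89) and the iron-binding Lcn2 (2.29). After BayTubes, Ccl2 (2.07), Cxcl1 (1.36), F3 (1.06), Cxcl5 (1.32), Lcn2 (1.21) and Saa3 (3.13) rose, while Ltb (-0.82) and Otud7b (-0.54) fell. After Graphite, Ccl2 (1.55) and Saa3 (2.50) rose and Otud7b fell (-0.57).

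**Figure D5:**
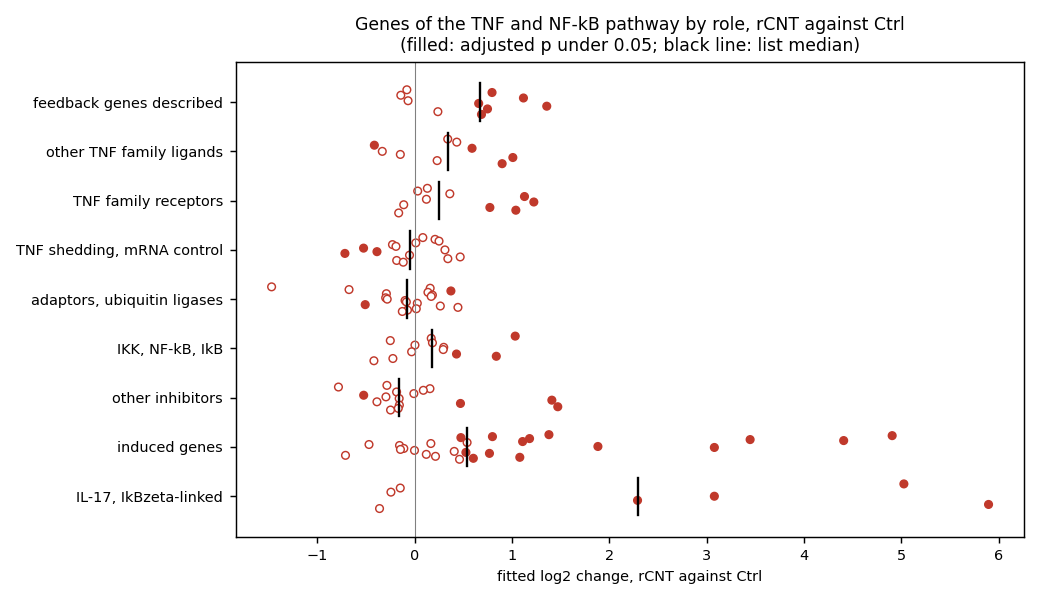
Fitted log2 change after rCNT against Ctrl (horizontal axis) for the genes of each role in the pathway (rows); each point is a gene, filled points passed an adjusted p under 0.05 in limma, and black lines are list medians. Of the 10 genes described (top row) 6 are filled, and the induced genes Ccl2, Cxcl1 and Il6 lie furthest right beside Cxcl10, Cxcl5 and Saa3.

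Markers of several cell types differed between the rCNT and Ctrl lungs in the same comparison, where 21.8% of tested genes were called and 12.4% were higher. Siglecf is on the list of alveolar macrophages and on that of eosinophils and basophils. For markers of monocytes and recruited macrophages, 4 of 7 tested rose and 2 fell, and their mean log2 signal ran from 12.2 to 12.35 in Ctrl and from 12.73 to 13.07 in rCNT samples. For alveolar macrophages 4 of 8 rose and none fell (12.01 to 12.06 against 12.4 to 12.59), for neutrophils 2 of 8 rose and 1 fell (9.62 to 9.72 against 9.85 to 10.45), and for eosinophils and basophils 3 of 4 rose (7.23 to 7.42 against 8.12 to 9.17). Of dendritic cell markers 2 of 7 rose, of T cell markers 3 of 6 rose, and none of 7 B cell or 6 natural killer cell markers was called. Endothelial markers fell in 6 of 7 (13.29 to 13.36 against 12.51 to 12.68) and alveolar type 1 markers in 4 of 7 (13.45 to 13.61 against 12.82 to 13.17). One marker each fell among 6 of alveolar type 2 cells, 5 of club cells, 6 of fibroblasts and 2 of red blood cells, and none of 6 of heart muscle was called. Array signals have no zero, so no marker can be said to be absent. The part of cell numbers in the rises of Tnf, Nfkbie, Nfkb2, Tnfaip3, Zc3h12a and Relb was not tested.

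The genes whose profile lay nearest to those of the 3 genes with the widest spread of group means were sought over all 24 samples. Distance was the root mean square difference between dye-adjusted log2 values, each centred on its mean. Nearest to Tnf were Atf3, a stress-induced transcription factor (0.225), the leukocyte phosphatase Ptpn7 (0.256) and the macrophage metal transporter Slc11a1 (0.259), where the median over tested genes was 0.567. Nearest to Nfkbie were the DNA replication genes Mcm3 (0.157) and Fen1 (0.164) and the ubiquitin ligase Traip (0.164), against a median of 0.440. Nearest to Nfkb2 were Dctpp1, an enzyme of nucleotide clean-up (0.141), Ppp1r14b (0.142) and Mmp23 (0.146), against a median of 0.416. After rCNT these 9 genes differed from Ctrl by 0.54 (Mmp23) to 1.26 (Atf3) log2 units. Since they were picked on the same samples, these differences are no separate result.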

How the data were processed

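The value table deposited by the authors holds a log2 signal for each spot in each sample. The submitters' processing notes name Agilent Feature Extraction and limma, without versions. After sorting, no sample's values departed from another's by more than 0.0856, as after quantile normalization, and no further normalization was applied. Of 62976 spots, 31465 had 1 gene symbol in the platform annotation, 31511 had none and 0 had several. Names were updated with a RefSeq table of GRCm38.p6, 29036 by accession, 2075 by symbol, 349 by synonym, and 5 kept the platform symbol. Each of 20738 genes was read at its spot with the highest mean, and 16519 exceeded the 40th percentile of signal in at least 3 samples.

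Changes were fitted in R 4.3.3 by the package limma 3.58.1, helped by statmod 1.5.0. The fit had terms for group and dye over all 24 samples, array as a random block (correlation 0.399), and moderated variances with 16 residual and 3.54 prior degrees of freedom. Tests were 2-sided, with Benjamini-Hochberg adjustment over the 16519 genes within a comparison and an adjusted p under 0.05 as threshold. The fit was also run on simulated data, drawn with the variances and array correlation estimated in that fit. Such data hold no outlying samples, so the run is no check on how the fit treats them. Genes of the 8 pathway lists are named as the up to 3 with the smallest p among those called, with Nfkb1, Rela, Rel, Tnfrsf1a, Tnfrsf1b and Ikbkb always. Tnfsf10, Otud7b and the genes called after BayTubes or Graphite are named to account for counts. Cxcl10 was named for the plot after its value was seen. No set test was run. The genes, the pathway lists and the 15 marker lists were chosen with earlier results of these data known. Alternatives changed the dye term, array block, slide, filter, normalization, spot, variance prior, threshold and samples. Fits within slides, of the groups compared alone and with a sample left out kept the main array correlation. A lone sample of a group was taken to vary like the other groups.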

Additional observations from a re-analysis of the deposited data

Results flagged for a closer look

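Among 30 groups of 4 samples, 1 for each gene and material with that many samples, 1 held a sample set apart from the others by a gap large against the whole range. This was Nfkbia in Graphite 13, with a log2 signal of 13.06, while the other Graphite samples lay between 13.71 and 13.79. The gap was 0.894 of the group's range. Chance flags about 1 in 20 such groups.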

How the results depend on the processing

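The count of genes called for rCNT against Ctrl was 6 of 10 in the main setting and in each fit with 1 sample left out, and 4 to 6 under the alternatives not named here. It fell to 0 with array as a fixed term, to 3 within slide 1 and to 2 within slide 2 with no dye term, an alternative chosen after seeing the data. Within a slide fewer samples are tested, and a fixed array term leaves only comparisons within arrays. Shares of all tested genes called are not given for each alternative, so the counts in this section lack that comparison. The number of all tested genes called for rCNT against Ctrl also varied. It was 3600 in the main setting, 441 to 4185 under the alternatives and 2468 to 3633 with 1 sample left out. With array as a fixed term the other counts were 1 for rCNT against the other 5 materials (6 in the main setting), 0 for the test over 7 groups (4), 5 for pairwise differences (30) and 19 for pathway genes after rCNT (37). Within slide 1 they were 0 for the test over 7 groups and 17 for pairwise differences. Pathway genes called numbered 20 with only the groups compared, 21 within slide 2 and 12 within slide 2 with no dye term. Within slide 2, 1 gene was called after BayTubes. With 1 sample left out, the counts were 4 to 6 for rCNT against the other materials, 4 to 5 for the test over 7 groups, 22 to 31 for pairwise differences and 30 to 40 for pathway genes.

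Of 70 fitted changes of single genes, none of the 12 that were called changed sign under any alternative. The sign of 32 changes that were not called turned under at least 1 alternative, in 63 cases, 2 of which were then called; the cause was not tested. With array as a fixed term, the turned log2 changes were -0.050 (Birc3) and -0.19 (Nfkbia) for rCNT against the other 5 materials, -0.090 (Nfkbiz) and -0.23 (Tnf) for Graphite, -0.022 (Nfkbiz) for SES, -0.19 (Relb), -0.017 (Tnf) and -0.076 (Tnip1) for fullerene, and -0.17 (Tnf) and -0.096 (Tnip1) for tCNT, each against Ctrl. Tnip1 after fullerene turned to -0.019 with samples centred on their median, -0.0016 with the mean of all spots and -0.0087 with normalization within dye, where Nfkbiz after SES was -0.0039. Birc3 after rCNT turned to 0.079 with the mean of all spots, 0.088 with no array block, 0.092 with only the groups compared and 0.031 with slide as a fixed term. With no array block, Nfkbiz turned to 0.10 after fullerene, 0.021 after rCNT and 0.0018 for rCNT against the other materials, and Relb after tCNT to 0.030. With no dye term, Nfkb2 after Graphite was 0.0017, Nfkbiz after fullerene 0.030 and Relb after tCNT 0.0037. Nfkbiz after fullerene was 0.0059 with no filter, and with only the groups compared it was 0.074, while Nfkbiz after rCNT was 0.0035 and Relb after tCNT 0.0040. Without the array of rCNT 4 and Graphite 16, Nfkbiz was 0.00085 after fullerene, 0.084 after rCNT and 0.11 for rCNT against the other materials.

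Within slide 1, the turned changes were 0.0092 (Birc3) and 0.0037 (Nfkbia) after rCNT, -0.12 (Nfkbiz) after Graphite, -0.21 (Nfkbiz), -0.062 (Tnf), -0.093 (Tnfaip3) and 0.0093 (Tnip1) after SES, -0.23 (Relb) after fullerene, and -0.12 (Tnf) and -0.016 (Tnfaip3) after tCNT. Within slide 2 they were 1.31 (Birc3), 0.87 (Nfkbia) and 0.93 (Nfkbiz) after rCNT, 1.15 (Birc3), 0.93 (Nfkbia), 0.69 (Nfkbiz) and -0.076 (Zc3h12a) after BayTubes, 1.08 (Birc3), 0.64 (Nfkbia), 0.64 (Nfkbiz) and -0.15 (Zc3h12a) after fullerene, 0.23 (Birc3) and 0.00076 (Relb) after Graphite, and 0.17 (Birc3) after SES. Within slide 2 with no dye term they were 0.052 (Birc3) after SES, 0.032 (Nfkb2) after Graphite, 0.0082 (Nfkb2) and 0.065 (Nfkbiz) after fullerene, 0.10 (Nfkbia) and 0.13 (Nfkbiz) after BayTubes and 0.25 (Nfkbiz) after rCNT.

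With 1 sample left out, 20 changes that were not called turned. For Nfkbiz the ranges were -0.17 to 0.086 after rCNT, -0.15 to 0.11 for rCNT against the other materials, -0.19 to 0.053 after BayTubes, -0.11 to 0.11 after fullerene, -0.051 to 0.19 after Graphite, -0.077 to 0.14 after SES and -0.21 to 0.016 after tCNT. For Relb they were -0.083 to 0.12 after fullerene, -0.23 to 0.043 after Graphite, -0.16 to 0.030 after SES and -0.082 to 0.041 after tCNT. For Nfkb2 they were -0.091 to 0.031 after Graphite, -0.21 to 0.074 after SES and -0.075 to 0.19 after tCNT. The range of Birc3 was -0.17 to 0.021 after BayTubes and -0.15 to 0.039 after rCNT, that of Nfkbia -0.21 to 0.020 after BayTubes, that of Tnf -0.10 to 0.25 after tCNT, and that of Tnip1 -0.022 to 0.038 after fullerene and -0.024 to 0.11 after tCNT. By replicate number, no paired analysis was possible because no number is shared between groups. Samples are paired only by sharing an array, and the fit with array as a fixed term, given above, is the fit on those pairs. Array signals carry no depth, and Ctrl signals of Tnf near the filter limit how well its lowest levels are measured.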
